A study of Mus musculus with 15 samples.

Results

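Livers of conventionally raised (ConvR) mice given feed rich in both fat and sucrose (HF/HS) were compared with livers of ConvR mice fed chow. The sample titles placed 3 mice in each group, so that 6 of the 15 livers of the series entered the comparison. All 6 were males of C57BL/6J, an inbred strain in wide laboratory use, and had acquired a microbiota from birth and were dissected at 19 weeks of age. HF/HS supplied 44.6% of its energy as fat, 40.6% as carbohydrate and 14.8% as protein. Chow, a breeder diet, supplied 23.7% as fat, 53.2% as carbohydrate and 23.1% as protein. Each diet was eaten from 3 weeks of age and had been irradiated and autoclaved. Protein was lower where fat was higher and the mice were caged by diet, so that single nutrients and the cage cannot be told apart from the diet. The other 9 livers share the fit, and so the estimate of spread between mice, and are otherwise given only beside this comparison. They came from germ-free (GF) mice on HF/HS, GF mice on chow, and conventionalized (ConvD) mice on chow, with 3 mice in each. The ConvD mice had been germ-free until 15 weeks of age, then received by gavage a cecal suspension from ConvR donors on chow, and were dissected 4 weeks later.

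The liver takes up dietary fat and fructose, makes fatty acids from carbohydrate, stores them as triglyceride in lipid droplets, burns them in mitochondria and peroxisomes, and exports them in lipoproteins. Transcription of these pathways is set largely by SREBP1c and ChREBP for fatty acid synthesis, by SREBP2 for cholesterol synthesis, by PPAR alpha for fat oxidation and by PPAR gamma for fat storage. Through the portal vein the liver also receives microbial products, short-chain fatty acids and bile acids that gut microbes have modified. Hepatocytes answer inflammatory cytokines with secretion of acute phase proteins.

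RNA was sequenced from stranded libraries of polyadenylated RNA, and the deposited expected counts summed to 17852369 to 21331381 in the ConvR HF/HS libraries and 16837867 to 19113375 in the ConvR chow libraries. Levels are given as CPM, counts per 1000000 of the effective library size, in the order of replicates 1, 2 and 3. Log2 fold changes are given ± standard error (SE), and a gene was called at an adjusted p below 0.05 (quasi-likelihood test of edgeR, with p adjusted by Benjamini-Hochberg over 12377 genes, n = 3 mice a group). Features of the libraries moved with the groups. ConvR chow 1 and 2 stood apart in acute phase transcripts, whose summed level was 21445 to 25538 CPM in the ConvR HF/HS livers and 105467, 136651 and 27800 CPM in the ConvR chow livers. Many results that this touches are given also without ConvR chow 1 and 2, where the 1 remaining chow mouse is assumed to vary like the mice of the other groups. Some lists, such as fatty acid uptake, are given in the text with all libraries only. The summed level of that list was 5913, 5684 and 8563 CPM in the ConvR chow livers, and its median without both mice is drawn in the plot of list medians. The rank correlation across genes between relative expression and gene length was 0.089, 0.154 and 0.277 in the ConvR HF/HS libraries and 0.018, -0.084 and -0.312 in the ConvR chow libraries. Genes called higher had a median length of 3494 bases, those called lower 2019 bases, and all genes tested 2800 bases. The part of length in the calls was examined only by removing a length trend from each library. Hepatocyte markers were at a summed 84479 to 91337 CPM in the ConvR HF/HS livers and 56728, 51085 and 88313 CPM in the ConvR chow livers. Alb, albumin, is 1 of these markers and the gene with the most counts in each library. It held 7.1, 8.16 and 6.84% of the counts in the ConvR HF/HS libraries and 3.46, 2.86 and 6.52% in the ConvR chow libraries. Taken gene by gene, 0 of 16 hepatocyte markers were called higher and 2 lower (median log2 fold change -0.14).

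Between the 2 diet groups of mice with a microbiota, 1802 of 12377 genes differed, or 14.6%. Of these, 836 were higher on HF/HS (6.75% of the genes tested) and 966 were lower (7.8%), and 427 changed at least 2-fold. Over all genes tested the median log2 fold change was -0.02. With the 2 ConvR groups fitted alone, 841 genes were called, and of the genes given with an SE below Fasn, Cidea, Fbp1, Foxo1, Sqle, Srebf2, Csad, Cyp3a11, Serpina1e, Ahsg, Cfd, Cela1, Sel1l, Xbp1 and Ppp1r3g lost their calls. The count was 1113 when ConvR chow 1 was left out, 1062 with ConvR chow 2 out and 991 with ConvR HF/HS 2 out. Without both ConvR chow 1 and 2, 354 genes were called (1130 when GF chow 1 was left out too), of which 297 were among the 1802. Of the genes given with an SE below, Pnpla3, Fasn, Mgll, Ugp2, Gbe1, Irs1, G6pc, Fbp1, Insig2, Cyp2c70, Cyp39a1, Cyp1a1, Serpina1e, Cyp2b9, Abcd2, Ahsg, S100a8, Cxcl1, Cdh5, Krt23, Sox9, Cfd, Cela2a, Gm6484, Gldc, Xbp1, Acot3, Ly6d and Ppp1r3g then lost their calls and kept their signs, as did others named in place. Scaling by library totals alone moved the median of all genes by 0.19 on the log2 scale, and deposited TPM moved it by 0.30, so that 84.8% and 95.6% of the calls were then higher on HF/HS, against 46.4% here. Directions below are therefore relative to the bulk of the transcriptome. The 3 HF/HS mice lay above the 3 chow mice in 15.1% of the genes tested and below them in 17.2%. Genes chosen as the largest changes, such as Cidec, Cidea, Apoa4, Fgf21, Enho, Orm2 and Lcn2, had to be without overlap. Separation of the groups is therefore no added support for such genes. Groups of genes are set out in the plot of list medians.

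**Figure D1:**
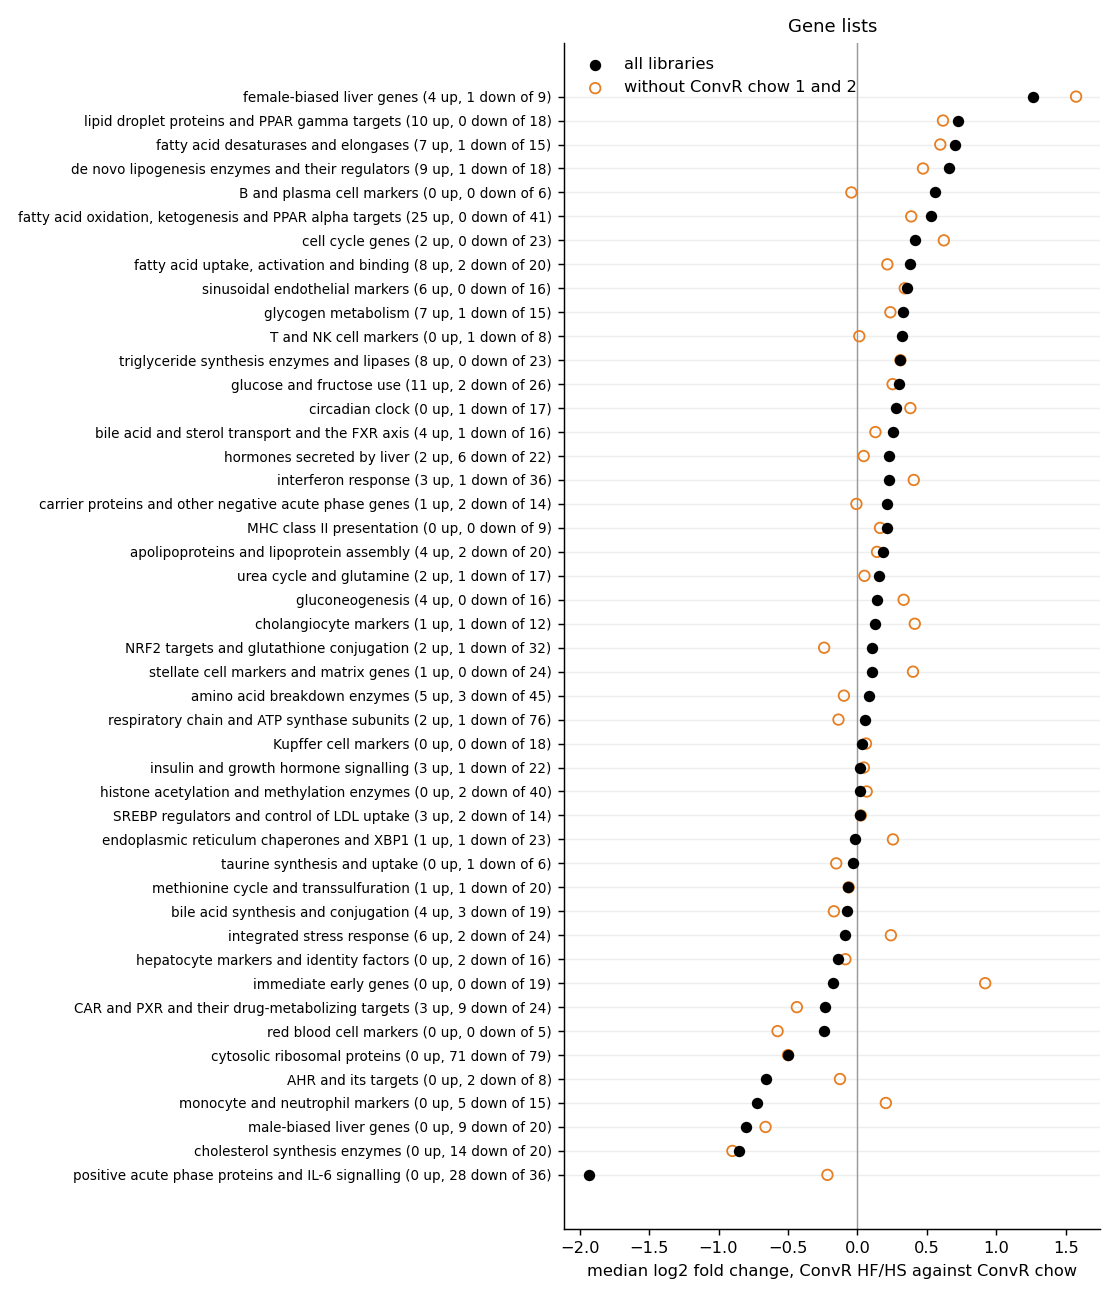
Median log2 fold change (horizontal axis) of each gene list in ConvR HF/HS against ConvR chow livers, n = 3 mice a group; labels give members called higher and lower of those tested. Filled points use all libraries and open points leave out ConvR chow 1 and 2; the acute phase median was -1.93 with all libraries and -0.22 without both, whereas cholesterol synthesis was at -0.86 and -0.90. Lists count the members that passed the filter on low counts, such as 15 of 23 monocyte and neutrophil markers and 9 of 20 female-biased genes. The points of these 2 lists are drawn, but no summary is taken from them. The filter can keep members through the group where they are high.

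Enzymes that make and modify fatty acids rose on HF/HS. Scd1, the desaturase that makes monounsaturated fatty acids, stood at 15498, 25868 and 8053 CPM in ConvR HF/HS livers, against 2076, 1849.9 and 2211 CPM in ConvR chow livers (log2 fold change 3.01 ± 0.41, adjusted p = 0.000582). Every HF/HS mouse lay above every chow mouse, and replicate 3 was the lowest of the HF/HS mice. Elovl5, which elongates polyunsaturated fatty acids, stood at 1078, 1500.5 and 709.9 CPM on HF/HS, against 182, 168 and 224 CPM on chow (log2 fold change 2.52 ± 0.30, adjusted p = 0.000264). Among desaturases and elongases, 7 of 15 members tested were higher and 1 was lower, with a median log2 fold change of 0.70. The others included Elovl2 (1.48 ± 0.14), a further elongase of polyunsaturated fatty acids, and Fads2 (1.44 ± 0.20), the delta-6 desaturase. Acaca, acetyl-CoA carboxylase, catalyses the committed step of fatty acid synthesis and stood at 185, 264 and 178 CPM on HF/HS, against 116, 88.2 and 85.3 CPM on chow (log2 fold change 1.11 ± 0.16, adjusted p = 0.000828). In the list of fatty acid synthesis enzymes and their regulators, 9 of 18 members were higher and 1 was lower, with a median of 0.66. Fasn, fatty acid synthase, stood at 688, 948 and 439 CPM on HF/HS, against 365, 308 and 378 CPM on chow (log2 fold change 0.98 ± 0.24, adjusted p = 0.0155). The groups did not overlap, but the adjusted p of Fasn ranged up to 0.0842 when single libraries were left out, and its call was lost without ConvR chow 2 or ConvR HF/HS 2. Pnpla3, a lipase of lipid droplets, stood at 3.54, 10.8 and 3.18 CPM on HF/HS, against 0.495, 0.301 and 0.724 CPM on chow (log2 fold change 3.51 ± 0.64, adjusted p = 0.00283). The lower member was Mid1ip1 (-0.83 ± 0.15), an activator of acetyl-CoA carboxylase. The transcription factor genes Srebf1 (log2 fold change 0.12) and Mlxipl (-0.03), which encode SREBP1 and ChREBP, were not called. Without ConvR chow 1 and 2 the counts were 4 higher and 0 lower for desaturases and elongases and 2 higher and 1 lower for fatty acid synthesis, and the medians were 0.60 and 0.47.

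**Figure D2:**
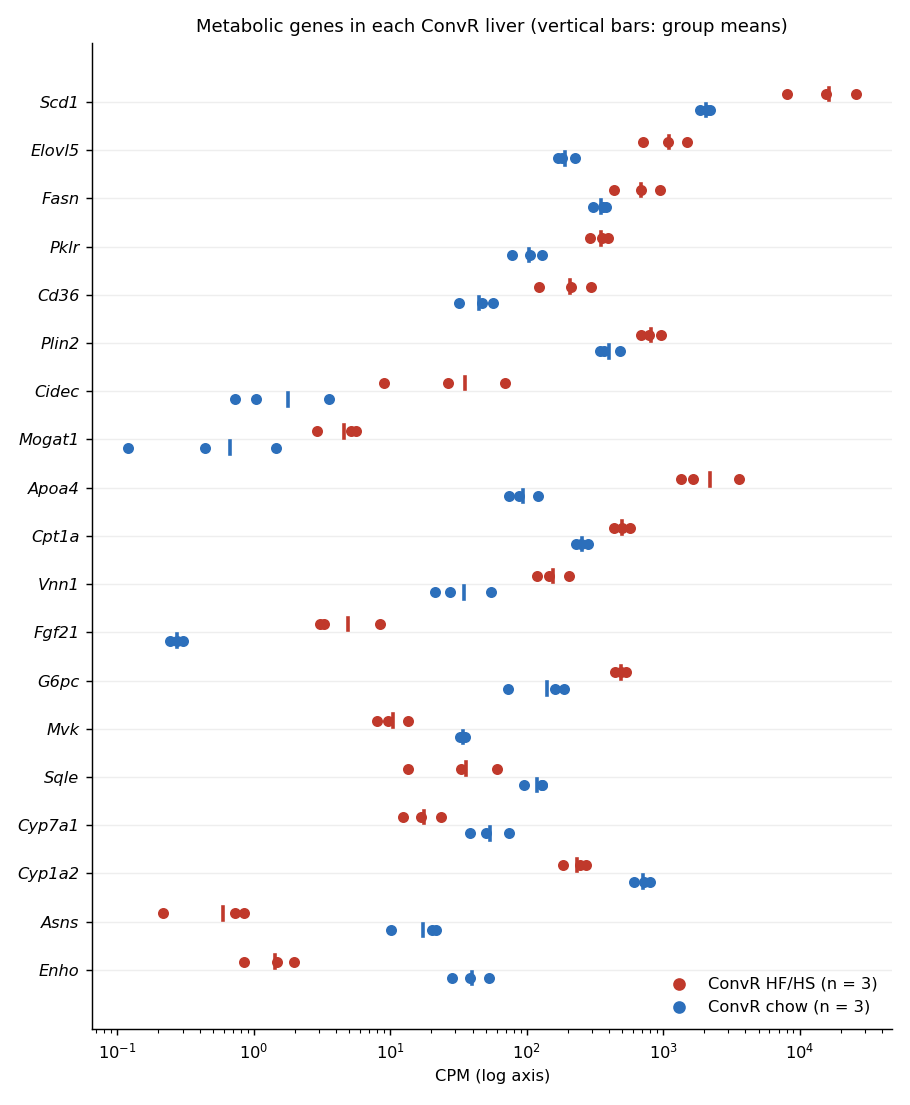
Levels of 19 metabolic genes in each ConvR liver in CPM on a log axis, HF/HS points above chow points for each gene, with group means as vertical bars (n = 3 mice a group). Scd1, Elovl5, Apoa4 and Fgf21 lay higher in every HF/HS mouse, and Mvk, Cyp7a1 and Enho lay lower in every HF/HS mouse. Apoa4, Fgf21 and Enho were chosen among genes without overlap.

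Genes of fat storage rose, those of droplet-coating and droplet-fusing proteins among them. Cidec, which fuses lipid droplets, stood at 26.4, 69.5 and 9.01 CPM in ConvR HF/HS livers, against 1.04, 0.723 and 3.56 CPM in ConvR chow livers (log2 fold change 4.30 ± 0.67, adjusted p = 0.00133). Its relative Cidea stood at 3.67, 13.2 and 1.5 CPM on HF/HS, against 0.11, 0 and 0.724 CPM on chow (log2 fold change 4.44 ± 0.89, adjusted p = 0.00498), with few reads in the chow mice. For both genes replicate 2 was the highest and replicate 3 the lowest HF/HS mouse. Both were chosen among the largest changes, which had to be without overlap. Plin2, a coat protein of droplets, stood at 784, 956 and 687 CPM on HF/HS, against 342, 371 and 483 CPM on chow (log2 fold change 1.02 ± 0.16, adjusted p = 0.00158). Plin4, another coat protein, had a log2 fold change of 1.83 ± 0.29 (adjusted p = 0.00153). Cd36, a fatty acid transporter, stood at 209.7, 295 and 122 CPM on HF/HS, against 46.6, 32.1 and 56.1 CPM on chow (log2 fold change 2.22 ± 0.30, adjusted p = 0.000495). Mogat1, which acylates monoacylglycerol, stood at 5.62, 5.15 and 2.91 CPM on HF/HS, against 0.44, 0.121 and 1.45 CPM on chow (log2 fold change 2.77 ± 0.47, adjusted p = 0.00196). In the list of droplet proteins and PPAR gamma targets, 10 of 18 members were higher and 0 were lower, with a median of 0.72. Pparg itself, the gene of the receptor, stood at 11.7, 20 and 12.6 CPM on HF/HS, against 5.28, 4.7 and 14.3 CPM on chow; the groups overlapped and it was not called (log2 fold change 0.87 ± 0.35, adjusted p = 0.112). Without ConvR chow 1 and 2, 3 droplet genes were called higher and the median was 0.62; Cidec (3.29, adjusted p = 0.082), Cidea (3.06, adjusted p = 0.169), Plin2 (0.74, adjusted p = 0.0854) and Mogat1 (1.65, adjusted p = 0.0599) kept the sign of their log2 fold changes and lost their calls.

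Of triglyceride synthesis enzymes and lipases, 8 of 23 were higher and 0 lower (median 0.30), and 0 of either kind were called without ConvR chow 1 and 2 (median 0.31). Mgll, monoacylglycerol lipase, was among the 8 (0.89 ± 0.14). Of genes of fatty acid uptake, activation and binding, 8 of 20 were higher and 2 lower (median 0.38). Fabp2, a fatty acid binding protein best known from intestine, stood at 158, 155 and 108 CPM on HF/HS, against 27.8, 24 and 54.3 CPM on chow (log2 fold change 1.99 ± 0.24, adjusted p = 0.000266). Vldlr, a lipoprotein receptor, stood at 5.49, 6.83 and 2.32 CPM on HF/HS, against 0.825, 0.362 and 0.302 CPM on chow (log2 fold change 3.26 ± 0.47, adjusted p = 0.000835). All HF/HS mice lay above all chow mice for both genes. Acsm1, a medium-chain acyl-CoA synthetase, was lower (-0.56 ± 0.08).

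Apolipoprotein genes moved in both directions, with 4 of 20 higher and 2 lower (median 0.18). Apoa4, an apolipoprotein of triglyceride-rich particles, stood at 1665, 3581 and 1359 CPM in ConvR HF/HS livers, against 87.8, 120.1 and 74.5 CPM in ConvR chow livers (log2 fold change 4.55 ± 0.36, adjusted p = 1.37e-05). Apoc2, the activator of lipoprotein lipase, stood at 367, 402 and 284 CPM on HF/HS, against 117, 130.1 and 104 CPM on chow (log2 fold change 1.59 ± 0.13, adjusted p = 1.37e-05). Apom, which carries sphingosine-1-phosphate, was lower at 107, 92.2 and 134 CPM on HF/HS, against 202, 242 and 185 CPM on chow (log2 fold change -0.92 ± 0.13, adjusted p = 0.000612). The groups did not overlap for Apoc2 and Apom, whereas Apoa4 was chosen among genes without overlap. Without ConvR chow 1 and 2 the log2 fold changes were 4.88 for Apoa4, 1.76 for Apoc2 and -0.74 for Apom.

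Many genes of fat burning rose. Cpt1a, the gate of fatty acid entry into mitochondria, stood at 502, 571 and 433 CPM in ConvR HF/HS livers, against 279, 248 and 229.7 CPM in ConvR chow livers (log2 fold change 0.99 ± 0.12, adjusted p = 0.000243). Vnn1, a pantetheinase and PPAR alpha target, stood at 145, 203 and 119 CPM on HF/HS, against 27.2, 21.3 and 54.8 CPM on chow (log2 fold change 2.17 ± 0.29, adjusted p = 0.000424). In each gene the lowest HF/HS mouse was above the highest chow mouse. Of 41 genes of oxidation, ketogenesis and PPAR alpha targets, 25 were higher and 0 lower, with 40 of the 41 log2 fold changes above 0 and a median of 0.53. With ConvR chow 1 and 2 left out, 4 were called higher and the median was 0.39. Fgf21, a hormone that liver secretes and a PPAR alpha target, stood at 3.07, 8.36 and 3.28 CPM on HF/HS, against 0.275, 0.241 and 0.302 CPM on chow (log2 fold change 4.13 ± 0.56, adjusted p = 0.000529). The receptor gene Ppara itself was higher (log2 fold change 0.83).

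Several genes of glycolysis and fructose use rose. Gpi1, the isomerase of an early step of glycolysis, stood at 182, 228 and 198 CPM in ConvR HF/HS livers, against 121, 112 and 119 CPM in ConvR chow livers (log2 fold change 0.79 ± 0.10, adjusted p = 0.000306). Pklr, liver pyruvate kinase, stood at 289, 394 and 358 CPM in ConvR HF/HS livers, against 106, 77.5 and 128 CPM in ConvR chow livers (log2 fold change 1.74 ± 0.22, adjusted p = 0.000306). Dak, listed under this older symbol for the triokinase of fructose breakdown, stood at 432, 420.3 and 425 CPM on HF/HS, against 259, 224 and 254 CPM on chow (log2 fold change 0.79 ± 0.10, adjusted p = 0.000419). With Khk, ketohexokinase (log2 fold change 0.78), and Slc2a5, a fructose transporter (1.26), these were among 11 of 26 genes of glucose and fructose use that were higher, while 2 were lower, Pfkfb2, which sets the level of a glycolysis activator, and Slc2a8, a sugar transporter (median 0.30). The list had 4 members called higher without ConvR chow 1 and 2.

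Of 16 gluconeogenesis genes, 4 were higher and 0 lower (median 0.14). G6pc, glucose-6-phosphatase, which releases free glucose, stood at 494, 444 and 529 CPM on HF/HS, against 162, 73.4 and 188 CPM on chow (log2 fold change 1.79 ± 0.39, adjusted p = 0.00753). Pcx, pyruvate carboxylase, stood at 747, 706 and 639 CPM on HF/HS, against 409, 422 and 357 CPM on chow (log2 fold change 0.82 ± 0.12, adjusted p = 0.000852). Fbp1, fructose-1,6-bisphosphatase (0.48 ± 0.12), and Foxo1, a transcription factor held back by insulin (0.59 ± 0.16), were the remaining pair. Each lost its call without some single libraries. The highest adjusted p was 0.0591 for Fbp1, whose call was lost without ConvR chow 1 or ConvR HF/HS 1. It was 0.0875 for Foxo1, whose call was lost when any single ConvR library other than chow 1 was left out. Of 15 glycogen genes, 7 were higher and 1 lower (median 0.33), among them Ugp2 (1.09 ± 0.21), which makes UDP-glucose, and Gbe1 (0.88 ± 0.18), the branching enzyme. Of 22 insulin and growth hormone signalling genes, 3 were higher and 1 lower (median 0.02). Irs1, an insulin receptor substrate, was higher (0.84 ± 0.18), as was Igfbp3, a carrier of insulin-like growth factors (0.89 ± 0.16).

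Cholesterol synthesis enzymes fell. Mvk, mevalonate kinase, stood at 7.99, 13.5 and 9.69 CPM in ConvR HF/HS livers, against 35.4, 34.2 and 32.4 CPM in ConvR chow livers (log2 fold change -1.71 ± 0.18, adjusted p = 0.000114). Sc4mol, a methylsterol oxidase late in the pathway, stood at 49, 98.8 and 66.8 CPM on HF/HS, against 235, 234 and 240.0 CPM on chow (log2 fold change -1.72 ± 0.19, adjusted p = 0.000163). Idi1, an isomerase of isoprenoid units, stood at 63.2, 169 and 107 CPM on HF/HS, against 341, 277 and 393 CPM on chow (log2 fold change -1.58 ± 0.26, adjusted p = 0.0018). Mice of the 2 groups did not overlap for these genes, and within HF/HS replicate 1 was the lowest and replicate 2 the highest. Sqle, squalene epoxidase, varied more, with 13.4, 60.6 and 32.8 CPM on HF/HS, against 129, 129 and 95.7 CPM on chow (log2 fold change -1.73 ± 0.36, adjusted p = 0.00615). Of 20 enzymes, 14 were lower and 0 higher, with a median of -0.86, and 1 log2 fold change lay above 0. Without ConvR chow 1 and 2, 5 were lower with a median of -0.90, and Sqle had a log2 fold change of -1.43 (adjusted p = 0.133). Srebf2, the gene of SREBP2, was lower (-0.47 ± 0.10), a call lost without ConvR chow 1 and 2, with no normalization factors and on TPM. Insig2, which holds SREBPs in the endoplasmic reticulum, stood at 608, 503 and 365 CPM on HF/HS, against 209, 129.9 and 248 CPM on chow (log2 fold change 1.33 ± 0.22, adjusted p = 0.0018). Of 14 SREBP regulators and related genes, 3 were higher and 2 lower (median 0.02).

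Hydroxylases of bile acid synthesis moved in both directions, with Cyp7a1 among the lower ones. Cyp7a1, the rate-limiting enzyme of the classical route, stood at 12.4, 23.7 and 16.6 CPM in ConvR HF/HS livers, against 49.8, 38 and 74.7 CPM in ConvR chow livers (log2 fold change -1.63 ± 0.30, adjusted p = 0.00329). Cyp2c70, which makes the muricholic acids of mice, stood at 297, 145 and 204 CPM on HF/HS, against 794, 605 and 471 CPM on chow (log2 fold change -1.53 ± 0.23, adjusted p = 0.00115). Cyp7b1, of the alternative route, had a log2 fold change of -1.84. Cyp8b1, the 12-alpha-hydroxylase that makes cholic acid, was higher by 0.86 on the log2 scale, as was Cyp39a1, an oxysterol hydroxylase (1.11 ± 0.20). Altogether 4 of 19 synthesis and conjugation genes were higher and 3 lower (median -0.08, and 0.32 on TPM). Of 16 genes of bile acid and sterol transport, 4 were higher and 1 lower (median 0.26). Abcb4, the phosphatidylcholine flippase of the canalicular membrane, stood at 367, 354 and 337 CPM on HF/HS, against 210.3, 175 and 215 CPM on chow (log2 fold change 0.82 ± 0.10, adjusted p = 0.000266). Csad, an enzyme of the synthesis of taurine, with which mouse bile acids are conjugated, was the 1 of 6 taurine genes called, at 72.7, 149 and 161 CPM on HF/HS, against 169, 305 and 412 CPM on chow (log2 fold change -1.21 ± 0.34, adjusted p = 0.0277). Its groups did not overlap, and its call was lost without ConvR chow 2, ConvR chow 3, ConvR HF/HS 1 or ConvR HF/HS 2 (highest adjusted p 0.0951).

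Several cytochromes P450 of drug metabolism fell. Cyp1a2, a target of the aryl hydrocarbon receptor (AHR), stood at 244, 183 and 272 CPM in ConvR HF/HS livers, against 717, 608 and 795 CPM in ConvR chow livers (log2 fold change -1.60 ± 0.14, adjusted p = 4.37e-05). Cyp1a1, the best known AHR target, was also lower (-1.32 ± 0.26). These were 2 of 8 AHR genes tested, with 0 higher and a median of -0.66, which was -0.13 without ConvR chow 1 and 2. Cyp2c29, a target of CAR, stood at 752, 522 and 748 CPM on HF/HS, against 1686, 1738 and 2022 CPM on chow (log2 fold change -1.43 ± 0.21, adjusted p = 0.000855). Cyp3a11, a classical PXR target, stood at 815, 1146 and 734 CPM on HF/HS, against 1505, 1941 and 3679.9 CPM on chow (log2 fold change -1.40 ± 0.32, adjusted p = 0.0109). The groups did not overlap for either, and ConvR chow 3 had the most Cyp3a11. Of 24 CAR and PXR genes, 9 were lower and 3 higher, with a median of -0.23 that was 0.17 on TPM. The 3 higher genes included Cyp2c38 (2.15 ± 0.29) and Cyp2b9, described with the sex-biased genes. Division of reads among near-identical members is uncertain in the families Cyp2b, Cyp2c and Cyp3a. Of 32 NRF2 targets, which serve redox defence, 2 were higher and 1 lower (median 0.10); without ConvR chow 1 and 2, 0 were higher and 4 lower (median -0.24).

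Male-biased liver genes fell and some female-biased genes rose in these male mice. In male rodents pulsatile growth hormone, acting through STAT5, maintains the male pattern. Selenbp2, a selenium-binding protein gene, stood at 51.5, 30.6 and 225 CPM in ConvR HF/HS livers, against 1932, 1397 and 1804 CPM in ConvR chow livers (log2 fold change -4.06 ± 0.61, adjusted p = 0.000995). Serpina1e, an alpha-1-antitrypsin gene, stood at 599, 164 and 2685 CPM on HF/HS, against 16064, 18222 and 11688 CPM on chow (log2 fold change -3.74 ± 0.69, adjusted p = 0.00315). ConvR HF/HS 3 held several times the level of the other HF/HS mice for both genes and was still below every chow mouse. Susd4, a complement regulator, followed the same order among HF/HS mice, at 7.39, 5.49 and 13.8 CPM on HF/HS, against 26.2, 30.7 and 26.2 CPM on chow (log2 fold change -1.63 ± 0.22, adjusted p = 0.000563). Of 20 male-biased genes, 9 were lower and 0 higher, with a median of -0.80. Mup1, a major urinary protein gene, was among the 9 (log2 fold change -2.50), and Elovl3 (-0.15), Cyp4a12a (-0.08) and Slco1a1 (-0.03), further male-biased genes, were not called. Cyp2b9, a female-predominant cytochrome P450, stood at 38, 32.7 and 4.09 CPM on HF/HS, against 0.055, 0 and 0.181 CPM on chow (log2 fold change 8.20 ± 1.78, adjusted p = 0.00776). Abcd2, a peroxisomal transporter of fatty acids, stood at 25.8, 36.2 and 10.7 CPM on HF/HS, against 4.18, 3.01 and 8.56 CPM on chow (log2 fold change 2.21 ± 0.54, adjusted p = 0.0153). The 2 higher HF/HS mice were replicates 1 and 2 in both, and the call of Abcd2 was lost without ConvR chow 1, ConvR chow 2 or ConvR HF/HS 2. Of the 20 female-biased genes listed, 9 passed the filter on low counts, and of these 4 were higher and 1 lower, so that no summary over the list is drawn from them. With ConvR chow 1 and 2 left out, 4 male-biased genes were lower with a median of -0.66. Genes of the Mup, Serpina1 and Cyp2b families have near-identical copies. Igf1, a growth hormone target, was not called (-0.14).

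**Figure D3:**
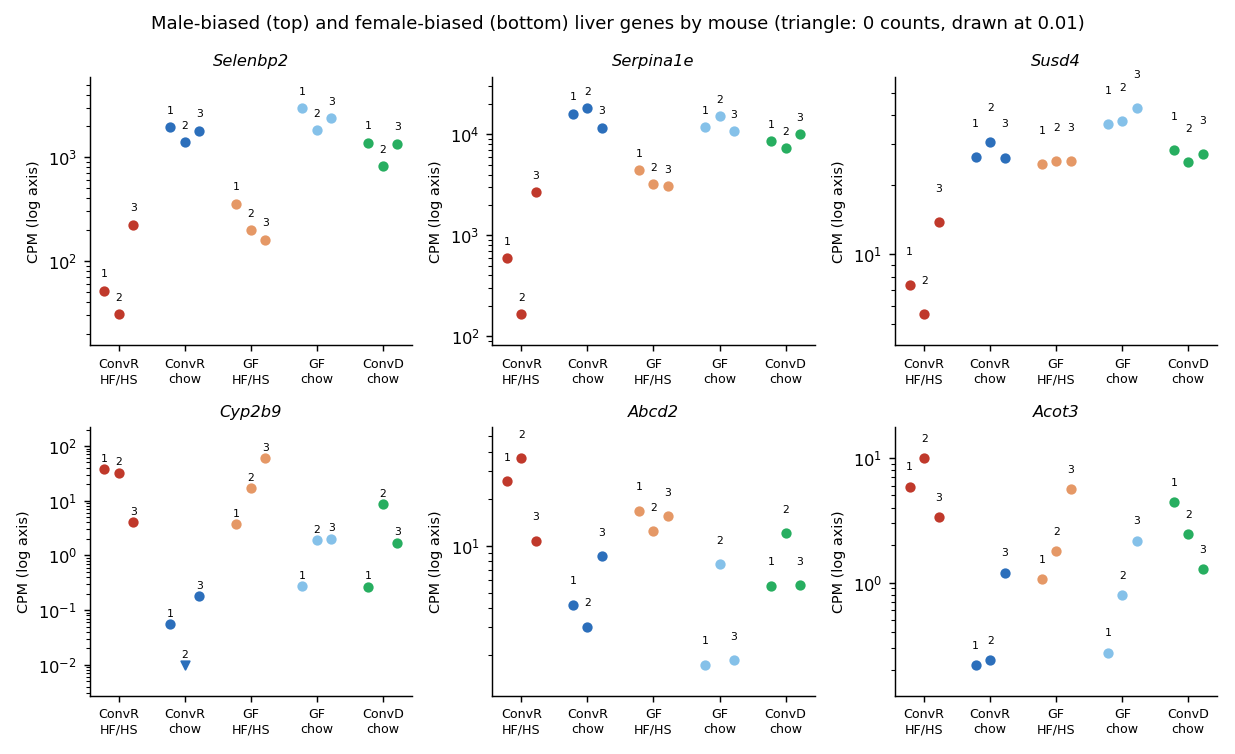
Levels of male-biased (top) and female-biased (bottom) liver genes in each mouse in CPM on a log axis, with the replicate number above each point and groups along the horizontal axis (n = 3 each). ConvR HF/HS 3 had 225 CPM of Selenbp2, above 51.5 and 30.6 CPM in the other ConvR HF/HS mice and below all ConvR chow mice.

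Acute phase transcripts were far lower on HF/HS, against chow mice of which 2 were very high. Saa2, which encodes a serum amyloid A protein, stood at 22.7, 53.8 and 18.1 CPM in ConvR HF/HS livers, against 9887, 12793 and 695 CPM in ConvR chow livers (log2 fold change -7.95 ± 1.00, adjusted p = 0.000306). Orm2, an acid glycoprotein gene, stood at 9.89, 15.2 and 10.3 CPM on HF/HS, against 1304, 1716 and 94.1 CPM on chow (log2 fold change -6.46 ± 0.78, adjusted p = 0.000266). Lcn2, lipocalin 2, which binds bacterial siderophores, stood at 11.4, 20.1 and 7.51 CPM on HF/HS, against 1073, 1453 and 75.1 CPM on chow (log2 fold change -6.06 ± 0.84, adjusted p = 0.000582). The chow mice were themselves uneven, with replicate 3 far below replicates 1 and 2. Replicate 3 still lay above every HF/HS mouse, which the choice of these genes among the largest changes required. Of 36 genes of acute phase proteins and IL-6 signalling, 28 were lower and 0 higher, with a median of -1.93. Without ConvR chow 1 and 2, 5 were lower and the median was -0.22, and log2 fold changes were -4.47 for Saa2 (adjusted p = 0.00675), -2.995 for Orm2 (adjusted p = 0.00106) and -2.53 for Lcn2 (adjusted p = 0.022). The metallothionein gene Mt2, a store of zinc, stood at 4.02, 7.27 and 3.41 CPM on HF/HS, against 452, 947 and 46.9 CPM on chow (log2 fold change -6.63 ± 1.06, adjusted p = 0.00153), and its log2 fold change without both was -3.26 (adjusted p = 0.0661). Socs3, the feedback inhibitor of IL-6 signalling, stood at 2.64, 3.07 and 3.46 CPM on HF/HS, against 78.3, 82.3 and 8.81 CPM on chow (log2 fold change -4.21 ± 0.81, adjusted p = 0.00404), with -1.53 without both (adjusted p = 0.331). Negative acute phase genes moved less, with 1 of 14 higher and 2 lower: Ahsg and Fetub, the fetuins, were lower (-0.65 ± 0.14 and -0.89 ± 0.10).

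**Figure D4:**
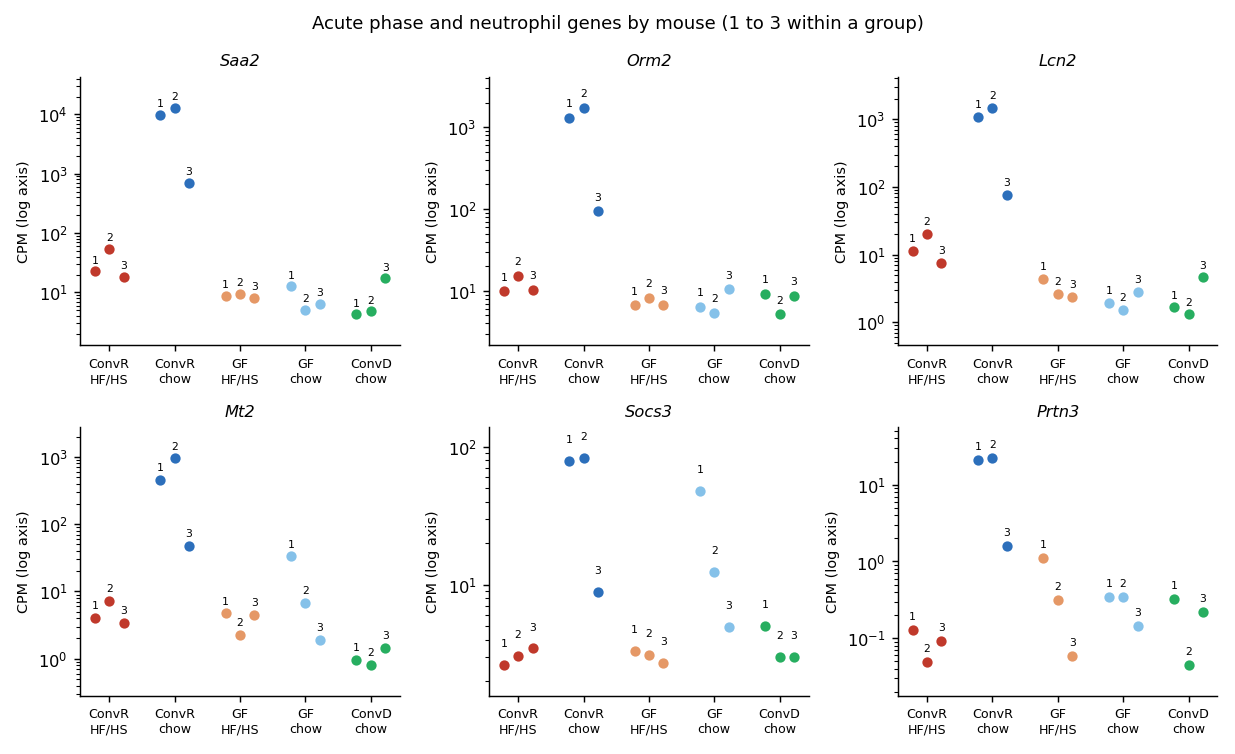
Levels of acute phase genes and of Prtn3 in each mouse in CPM on a log axis, with the replicate number above each point and groups along the horizontal axis (n = 3 each). ConvR chow 1 and 2 had 9887 and 12793 CPM of Saa2, ConvR chow 3 had 695 CPM, and the 3 ConvR HF/HS mice had 22.7, 53.8 and 18.1 CPM.

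Saa1 moved with Saa2 (log2 fold change -6.92 ± 0.87, adjusted p = 0.000306), and the promoters of the pair are shown because the genes lie side by side, on opposite strands, and are alike. The 250 bases before each start were read from RefSeq on build GRCm38.p6, in the direction of transcription, with the motif TTNNGNAAT of the C/EBP factors, regulators of acute phase genes, in capitals on either strand.
Saa1, chr7:46742981-46743230, minus strand: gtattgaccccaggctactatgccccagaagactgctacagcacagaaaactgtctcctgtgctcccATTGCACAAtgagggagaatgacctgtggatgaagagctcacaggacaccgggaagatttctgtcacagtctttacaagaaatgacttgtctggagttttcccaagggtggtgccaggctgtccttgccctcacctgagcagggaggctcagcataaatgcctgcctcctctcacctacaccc
Saa2, chr7:46751583-46751832, plus strand: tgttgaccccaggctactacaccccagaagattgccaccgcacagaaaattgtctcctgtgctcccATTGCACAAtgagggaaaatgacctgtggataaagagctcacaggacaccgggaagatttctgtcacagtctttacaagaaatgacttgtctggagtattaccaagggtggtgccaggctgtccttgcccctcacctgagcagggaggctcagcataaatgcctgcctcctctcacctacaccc
The aligned sequences were identical at 238 positions, or 94.8%, and the motif began 183 bases before the start in Saa1 and 184 in Saa2. It was found in 8 of the 29 acute phase genes that had a promoter in the table (27.6%) and in 11.7% of 27025 genes, overlapping no other motif searched in the pair shown. The STAT motif TTCCNGGAA was in 3 of the 29 and in 1.09% of all genes, and the sterol element TCACNCCAC was in 1 of 16 cholesterol synthesis genes and in 1.22% of all. A match is a description of these letters only. Near-identical sequence also means that reads of Saa1 and Saa2 could be divided wrongly between the pair.

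A few neutrophil genes and a chemokine were lower on HF/HS, while 10 of the 15 monocyte and neutrophil markers tested were not called. Prtn3, a protease of neutrophil granules, stood at 0.13, 0.0495 and 0.091 CPM in ConvR HF/HS livers, against 21, 21.9 and 1.57 CPM in ConvR chow livers (log2 fold change -7.24 ± 1.03, adjusted p = 0.000744). S100a8, a calcium-binding protein of neutrophils, stood at 0.648, 0.445 and 0.819 CPM on HF/HS, against 6.87, 10.7 and 1.27 CPM on chow (log2 fold change -3.28 ± 0.61, adjusted p = 0.00331). Cxcl1, a chemokine that attracts neutrophils, stood at 1.64, 1.53 and 2.05 CPM on HF/HS, against 133, 134 and 9.29 CPM on chow (log2 fold change -5.72 ± 1.05, adjusted p = 0.00296). ConvR chow 1 and 2 were the high mice in all of these. Of 23 monocyte and neutrophil markers 15 passed the filter on low counts, some through the chow mice in which they were high, so that no summary is drawn from them; 5 were lower and 0 higher, and 1 was lower without ConvR chow 1 and 2. The summed markers were at 71.4 to 83.8 CPM in the ConvR HF/HS livers and 116 to 172 CPM in the ConvR chow livers. In whole liver, fewer cells of a type and less RNA per cell cannot be told apart.

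Markers of other cells differed by type. Of 16 sinusoidal endothelial markers, 6 were higher and 0 lower (median 0.36), 4 with the length trend removed and 0 without ConvR chow 1 and 2 (median 0.34). Cdh5, VE-cadherin, stood at 37.3, 39.4 and 43.8 CPM on HF/HS, against 27.1, 27 and 31.9 CPM on chow (log2 fold change 0.49 ± 0.10, adjusted p = 0.00535). Of 18 Kupffer cell markers, which mark resident liver macrophages, 0 were called (median 0.03); the smallest p was that of Cd163, a scavenger receptor, at 14.1, 20.8 and 23.6 CPM on HF/HS, against 33, 37.7 and 20.3 CPM on chow (log2 fold change -0.64 ± 0.22, adjusted p = 0.0658). The summed Kupffer markers were at 746 to 1130.3 CPM in the ConvR HF/HS livers and 775 to 933 CPM in the ConvR chow livers. Of 24 stellate cell and matrix genes, 1 was higher and 0 lower, and of 8 T and NK cell markers, 1 was lower. No B cell, MHC class II or red blood cell marker was called among 6, 9 and 5 tested. Of 12 cholangiocyte markers, Krt23, a keratin, was higher (2.11 ± 0.48) and Sox9, a transcription factor of bile ducts, was lower (-1.88 ± 0.38). Of 16 hepatocyte markers, 2 were lower (median -0.14, and 0.28 on TPM). Of the 4 adipocyte markers tested, Cfd, adipsin, was higher (3.10 ± 0.77), a call lost without ConvR chow 1, ConvR chow 2 or ConvR HF/HS 2, while the defining adipocyte genes Lep and Plin1 had no count in any of the 6 livers. Of 10 exocrine pancreas markers, the elastase genes Cela1 and Cela2a passed the filter and were lower (-0.87 ± 0.26 and -1.76 ± 0.55). The groups overlapped for Cela1, whose call was lost without ConvR chow 3, ConvR HF/HS 1 or ConvR HF/HS 2, and the call of Cela2a was lost without ConvR chow 1, ConvR chow 2, ConvR HF/HS 1 or ConvR HF/HS 2; both were lost with the length trend removed. The summed pancreas markers were at 8.51 to 16.8 CPM in the ConvR HF/HS livers and 14.1 to 32.7 CPM in the ConvR chow livers. Most of this sum was Cela1, at 8.46 to 15.4 CPM on HF/HS and 13.6 to 32.5 CPM on chow. The trypsinogen gene Prss1 had no count in any of the 6 livers. The part of these cells in other results was not tested. Of 36 interferon response genes, 3 were higher and 1 lower (median 0.22), and all 4 lost their calls without ConvR chow 1 and 2.

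Single hormone genes and Asns fell, whereas the lists they belong to moved in both directions. Enho, the gene of adropin, a peptide of energy balance, stood at 1.47, 0.841 and 1.96 CPM in ConvR HF/HS livers, against 38.4, 52.8 and 28.2 CPM in ConvR chow livers (log2 fold change -4.79 ± 0.35, adjusted p = 1.37e-05). Gm6484, the symbol under which the files list Angptl8, a feeding-induced inhibitor of lipoprotein lipase, stood at 11.8, 11.8 and 12.8 CPM on HF/HS, against 38.2, 41.7 and 43.8 CPM on chow (log2 fold change -1.77 ± 0.35, adjusted p = 0.00497). The Gm6484 values of the groups did not overlap. Of 22 liver hormone genes, 6 were lower and 2 higher (median 0.23), Fgf21 being 1 of the 2. Asns, asparagine synthetase, stood at 0.216, 0.841 and 0.728 CPM on HF/HS, against 20.1, 21.6 and 10.1 CPM on chow (log2 fold change -4.87 ± 0.49, adjusted p = 0.000101). It is a target of ATF4, the factor of the integrated stress response, and Atf4 itself was lower (log2 fold change -0.63). The 24 genes of that response did not move one way: 6 were higher and 2 lower (median -0.09, which was 0.24 without ConvR chow 1 and 2 and 0.29 on TPM), with Sesn2 (0.99 ± 0.14) and Trib3 (1.59), which restrain growth signalling, higher. Of 45 amino acid breakdown enzymes 5 were higher and 3 lower (median 0.08), of 17 urea cycle and glutamine genes 2 were higher and 1 lower, and of 20 methionine cycle genes 1 was higher and 1 lower. Gldc, of glycine cleavage, was higher (0.70 ± 0.12) and Gcat, of threonine breakdown, was lower (-0.56 ± 0.10). Of 23 endoplasmic reticulum chaperone genes, Sel1l, of protein degradation, was higher (0.44 ± 0.14, a call lost when any single ConvR library other than chow 2 was left out) and Xbp1, a transcription factor of the unfolded protein response, was lower (-0.84 ± 0.18).

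Most cytosolic ribosomal protein genes were lower. Rpl12 stood at 97.2, 97.5 and 109 CPM in ConvR HF/HS livers, against 196, 178 and 192 CPM in ConvR chow livers (log2 fold change -0.90 ± 0.09, adjusted p = 7.01e-05). Of 79 such genes 71 were lower and 0 higher, with a median of -0.50. These are short genes, and gene length moved with the groups as given above: with the length trend removed, 51 were lower and the median was -0.33, and on TPM 17 were lower and the median was -0.10 beside a shift of 0.30 in all genes. Their summed level was 9908 to 10821 CPM in the ConvR HF/HS livers and 14435 to 15084 CPM in the ConvR chow livers. Of 76 respiratory chain genes 2 were higher and 1 lower (median 0.06), and 24 were higher with the length trend removed. Immediate early genes, which respond within minutes, had 0 of 19 called (median -0.18, and 0.92 without ConvR chow 1 and 2). Dusp1, a phosphatase among them, had the smallest p, with 23.3, 39.8 and 27.1 CPM on HF/HS, against 14.8, 11.5 and 10.3 CPM on chow (log2 fold change 1.29 ± 0.43, adjusted p = 0.0568). Of 17 clock genes 1 was lower, of 23 cell cycle genes 2 were higher, and of 40 histone-modifying enzymes 2 were lower.

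Some of the largest single changes were in genes of other roles. Rgs16, which dampens G protein signalling, stood at 33.8, 73.8 and 29 CPM in ConvR HF/HS livers, against 0.715, 0.181 and 0.784 CPM in ConvR chow livers (log2 fold change 6.32 ± 0.84, adjusted p = 0.000487). Mfsd2a, a transporter of lysophosphatidylcholine, stood at 170.1, 227 and 109.6 CPM on HF/HS, against 21.2, 17.5 and 5.55 CPM on chow (log2 fold change 3.51 ± 0.66, adjusted p = 0.00367). Ntrk2, a neurotrophin receptor, stood at 12.1, 9.4 and 3.32 CPM on HF/HS, against 0.66, 0.482 and 0.543 CPM on chow (log2 fold change 3.86 ± 0.51, adjusted p = 0.000419). Replicate 3 was the lowest HF/HS mouse for each. Acot3, a peroxisomal acyl-CoA thioesterase that is also on the female-biased list, was higher (3.52 ± 0.81), a call lost without ConvR chow 1. Stap1, a signalling adaptor (3.42 ± 0.37), Defb1, a beta-defensin (3.40 ± 0.44), and Ly6d, a cell surface protein (3.34 ± 0.66), were also among the larger increases. So was Ppp1r3g, a glycogen-targeting phosphatase subunit (4.71 ± 1.49). Ppp1r3g rested on ConvR HF/HS 2, at 12.6 CPM against 1.68 CPM in replicate 1, and its adjusted p reached 0.239 when single libraries were left out, the call being lost without any 1 chow mouse or HF/HS 2. Among decreases, Moxd1, a monooxygenase, stood at 0.0864, 0 and 2.64 CPM on HF/HS, against 354, 329 and 27.1 CPM on chow (log2 fold change -8.003 ± 1.46, adjusted p = 0.00291), and Scara5, a ferritin receptor, at 2.42, 1.63 and 6 CPM on HF/HS, against 84, 94.6 and 17.5 CPM on chow (log2 fold change -4.28 ± 0.70, adjusted p = 0.00175). ConvR chow 1 and 2 were again the high mice for Moxd1 and Scara5, and both lost their calls without them (adjusted p = 0.0923 and 0.1).

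The same change of diet in GF mice, which shares no library with this one, called 1182 genes, or 9.55%. That count was 696 without GF chow 1 and 304 to 352 without any 1 of the GF HF/HS mice. Of the 836 genes called higher on HF/HS in ConvR mice, 230 were also called higher in GF mice, which is 27.5% of the ConvR calls and 45.4% of the GF calls. Of the 966 called lower, 273 were also called lower in GF mice, which is 28.3% of the ConvR calls and 40.4% of the GF calls. Across the 12377 genes, which are not independent replicates, the log2 fold changes correlated at 0.49, and 1 gene, Gna14, a G protein subunit, was called in opposite directions. The test of whether the diet difference itself differed with a microbiota called 0 genes (0%, edgeR's quasi-likelihood test), with 1573 at an unadjusted p below 0.05, 109 called by DESeq2's Wald test and 0 by limma-voom. The smallest adjusted p was 0.0503, shared by 13 genes, among them Saa2, Orm2, Saa1, Fetub and Abcb4. The count was 450 without ConvR chow 3 and 22 without ConvR HF/HS 3.

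Scd1 (3.82), Elovl5 (2.45), Mvk (-1.52), Cyp1a2 (-1.08) and Selenbp2 (-3.32) were called in the same direction in GF mice, the values being GF log2 fold changes. Cidec (0.70), Mogat1 (0.21), Plin2 (0.23), G6pc (0.13), Fetub (-0.04) and Saa2 (0.15) were not called in GF mice. G6pc was uneven in the GF chow mice, at 1264, 561 and 351 CPM, against 753, 847 and 781 CPM in GF HF/HS mice. For none of the genes named here did the difference between ConvR and GF mice pass the test of the difference (smallest adjusted p 0.0503). Fatty acid oxidation had 25 of 41 members higher and 0 lower in ConvR mice and 4 higher and 1 lower in GF mice, with medians of 0.53 and 0.05. Fatty acid synthesis had 9 of 18 higher in ConvR mice and 10 in GF mice, and cholesterol synthesis had 14 of 20 lower in ConvR mice and 6 in GF mice. Acute phase genes had 28 of 36 lower in ConvR mice and 2 in GF mice. Over all 12377 genes, 836 were called higher and 966 lower in ConvR mice, and 507 higher and 675 lower in GF mice. The ConvR counts include ConvR chow 1 and 2, and the medians of these lists without both mice are given above.

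**Figure D5:**
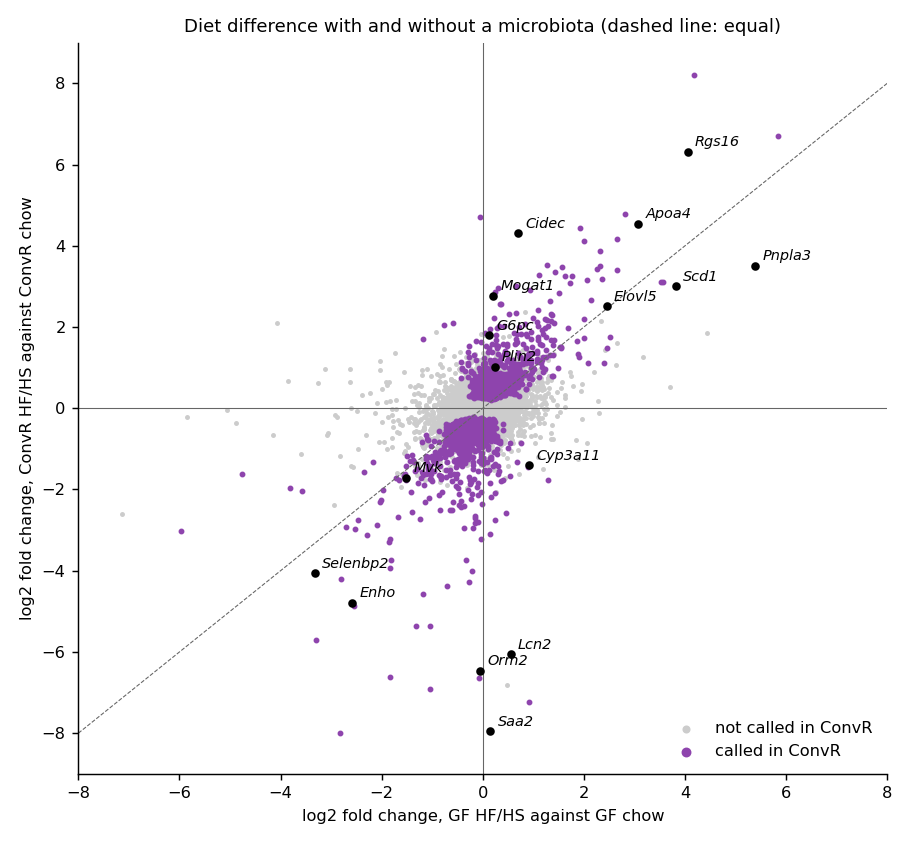
Log2 fold change of HF/HS against chow in ConvR mice (vertical axis) and in GF mice (horizontal axis) for 12377 genes, purple where called in ConvR mice, with some described genes in black. Scd1 and Mvk lie near the dashed line of equal change, whereas Saa2, Orm2 and Lcn2 lie far below 0 in ConvR mice and near 0 in GF mice.

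Against ConvD mice on chow, which acquired their microbiota as adults, the same ConvR HF/HS livers had 320 genes called, or 2.59%, and 95 to 179 without any 1 ConvD mouse, ConvR HF/HS 1 or ConvR HF/HS 2. This comparison shares the ConvR HF/HS libraries, so values are only set side by side. Apoa4 had log2 fold changes of 5.07 against ConvD chow and 4.55 against ConvR chow, Cidec 3.61 and 4.30, Cyp1a2 -1.76 and -1.60, and Enho -2.83 and -4.79, with all 8 called. Saa2 had 1.86 and -7.95 and Lcn2 2.39 and -6.06, of which those against ConvD chow were not called. G6pc had -0.63 and 1.79, and the first was not called. Of the acute phase list, 0 of 36 members were called against ConvD chow (median 0.12, edgeR's quasi-likelihood test over all genes, in which 2251 had an unadjusted p below 0.05).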

How the data were processed

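Liver RNA was sequenced from 15 mice, 3 in each of 5 groups that the sample titles name. Gene tables made by the authors with Bowtie2 and RSEM 1.2.23 on build mm9, per the submitters' processing notes, hold expected counts, TPM and FPKM for 20325 genes in 1 library each. The deposited expected counts were rounded to whole numbers and fitted with edgeR 4.0.16 (R 4.3.3) over all 15 libraries, with TMM scaling and genes kept by a minimum count of 10. The quasi-likelihood test was used, standard errors were taken as the fold change (log2) divided by the root of F, and Benjamini-Hochberg adjustment ran over 12377 genes. The deposited TPM were used, as log2(TPM + 1), with limma 3.58.1 only as an alternative, and the deposited FPKM were not used. Standard errors and p-values rest on a spread between mice that was estimated over all 5 groups, with 10 residual degrees of freedom. The depth limits genes with few counts. RSEM divides reads among near-identical genes by estimate.

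The test was checked on simulated counts for this comparison over 12300 genes: 71 of 99 genes changed 2-fold and 96 of 100 changed 4-fold were recovered, with 8 false calls. Counts were drawn around 1 mean per gene with the spread fitted to these data. The simulation held no mice set apart like ConvR chow 1 and 2 and no length trend, so it cannot speak for these features. Other settings were DESeq2 1.42.0, limma-voom, other filters and scalings, the compared groups fitted alone, a replicate block, leaving out libraries, and removal of a gene length trend. The lists, groups of genes and tests were chosen with earlier results of these data known. Genes were named by a rule: the 15 largest non-overlapping changes each way with a mean of at least 2 CPM, up to 4 called members of a list with the smallest adjusted p, and a few genes of the pathways. Genes printed with a log2 fold change and no standard error, other than Cox7a2l and Kat2a, fall outside the rule and were chosen after their values were seen. Promoters came from RefSeq on GRCm38.p6, a later build than mm9, so no coordinate was joined to the count tables. Results for a few genes are not reported here.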

Additional observations from a re-analysis of the deposited data

How the results depend on the processing

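The ConvR diet comparison called 1802 genes and kept within 1.5 times that count with DESeq2 size factors, no filter, a stricter filter, DESeq2, limma-voom and the length trend removed. It called 3238 genes with no normalization factors, 6100 on TPM with limma, 841 with its 2 groups fitted alone, 354 without ConvR chow 1 and 2, 1130 without these and GF chow 1, and 991 to 2133 when single libraries were left out. The interaction called 0 genes, but 6 with no normalization factors, 2 with no filter, 11 with a stricter filter, 109 with DESeq2, 1192 on TPM and 0 to 450 when single libraries were left out. The GF comparison called 623 genes on TPM, 259 fitted alone, 660 with the length trend removed and 304 to 1399 when single libraries were left out. The comparison with ConvD chow called 596 genes with DESeq2, 1056 without ConvR chow 1 and 2 and GF chow 1, and 95 to 459 when single libraries were left out. The cause of these moves was not tested.

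Replicate numbers were not treated as pairing the mice. Same-numbered ConvR HF/HS and ConvR chow mice deviated from their group means with correlations of 0.019, 0.015 and 0.036. Differently numbered mice ranged from -0.162 to 0.159. So few pairs cannot settle whether the numbers pair mice. With the number as a replicate block, 1617 genes were called in the ConvR comparison, 0 in the interaction, 1000 in the GF comparison and 268 against ConvD chow. Of 146 called genes that the rule named, 53 kept their calls under every alternative, 102 in every fit that left out 1 library, and 64 without ConvR chow 1 and 2. On TPM, whose median over all genes lay 0.30 higher, the log2 fold changes of Cox7a2l and Kat2a were 0.16 and 0.038, against -0.24 and -0.35 in the edgeR fit. The medians of the taurine, methionine cycle, chaperone and immediate early lists also turned positive there.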

Other observations

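A few complement genes are given as values, chosen after their values were seen and not as a list. C4a, a complement component, averaged 16.0 ± 7.9 CPM in ConvR HF/HS livers and 107 ± 35.6 CPM in ConvR chow livers (SD, n = 3 each), a log2 fold change of -2.74. C8b, of the membrane attack complex, had -1.67, and C3, the central component, -1.04, whose groups overlapped. C4b (-0.50) and C1s (-0.22), further components, were not called, and reads of C4a and C4b could be divided wrongly between the pair. ConvR chow 1 and 2, which were high in acute phase transcripts, are in these means, and the part of these mice was not tested.

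A few other genes, also chosen after their values were seen, are given with their changes in GF mice. Sulf2, a sulfatase of heparan sulfate, averaged 19.95 ± 4.53 CPM in ConvR HF/HS livers and 3.37 ± 0.78 CPM in ConvR chow livers, with a log2 fold change of 2.56 in ConvR mice and 0.34 in GF mice; the adjusted p of the difference was 0.0503. Anxa2, annexin A2, averaged 41.8 ± 18.7 CPM in ConvR HF/HS livers and 15.0 ± 0.8 CPM in ConvR chow livers, with log2 fold changes of 1.48 in ConvR mice and 0.13 in GF mice. Hamp, the iron hormone hepcidin, had -1.62 in ConvR mice and -4.77 in GF mice. Slc13a5, a citrate transporter, averaged 0.642 ± 0.286 CPM in ConvR HF/HS livers and 10.4 ± 8.2 CPM in ConvR chow livers, with log2 fold changes of -4.01 in ConvR mice and -0.20 in GF mice. The differences of Anxa2, Hamp and Slc13a5 between ConvR and GF mice did not pass the test of the difference.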
